A study of Homo sapiens with 6 samples.

Results

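The long noncoding RNAs described here are the LINC, SNHG and microRNA host genes that SKOV3 cells expressed. A gene was taken when its deposited biotype was lncRNA, its symbol began with LINC or SNHG and a digit or had the form of a microRNA host gene (MIR, a number and HG), and its mean over the 6 libraries was at least 1 CPM (counts scaled to the library's total). Of 61552 genes in the deposited table, 17734 were lncRNAs, 2210 of these carried such a name, and 240 reached the line. They were 192 of 2110 LINC genes, 23 of 28 SNHG genes and 25 of 72 microRNA hosts. The members were thus selected on their measured level over both groups, and their levels are given as a description. The rule itself did not use the difference between the groups, but it was set with earlier results of these data known. In addition, 14 members lay under 1 CPM in the mean of the controls only and 16 in the mean of the treated libraries only.

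SKOV3 is an established human ovarian carcinoma line with amplified ERBB2. Cells were given fenbendazole at 1 µM, a tubulin-binding benzimidazole used as a worm medicine, or its solvent DMSO, and their poly(A) RNA was sequenced 48 h later in 3 libraries for each group. The libraries carry the numbers of their titles, DMSO 10, 11 and 12 and fenbendazole 7, 8 and 9. All are of this single line, and the labels do not say that the libraries came from separate cultures, so a p-value here reflects the spread among 3 libraries of a group and possibly no more than technical variation.

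A lncRNA is a transcript that is not known to encode a protein. LINC symbols are given to lncRNAs between protein-coding genes, mostly without a known function. SNHG genes carry small nucleolar RNAs (snoRNAs) in their introns. The intron pieces become the snoRNAs that guide modification of ribosomal and spliceosomal RNA, while the spliced host RNA is exported and often degraded in step with translation. MicroRNA host genes carry microRNA hairpins, which are cut from the nascent transcript, and a mature microRNA then pairs with messenger RNAs mainly through its seed, bases 2 to 8. Poly(A) sequencing measures the spliced host and not the small RNA. Accordingly, the 133 snoRNA and scaRNA genes inside SNHG members together had 425 counts in the 6 libraries and the 47 microRNA genes inside the hosts had 170, and none of them passed the filter on low counts.

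A microRNA of the RefSeq table (GRCh38.p14) lay on the same strand inside 24 of the 25 hosts. Both hosts whose RNA changed are shown first with the microRNAs they contain, 5′ to 3′ and with the seed in capitals.
miR-924 (MIR924HG): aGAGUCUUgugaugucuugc
miR-5583-5p (MIR924HG): aAACUAAUauacccauauucug
miR-5583-3p (MIR924HG): gAAUAUGGguauauuaguuugg
miR-4435 (MIR4435-2HG): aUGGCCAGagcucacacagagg
The 3 microRNAs of MIR924HG share no seed with one another or with any other host here. Seeds did recur among hosts whose RNA did not pass the test. GAGGUAG, the let-7 seed, occurred in 4 hosts, and ACCCGUA, that of miR-100 and miR-99a, in MIR100HG and MIR99AHG, so these are printed together.
let-7a-5p (MIR100HG): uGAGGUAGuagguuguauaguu
let-7c-5p (MIR99AHG): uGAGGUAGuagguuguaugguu
miR-4458 (MIR4458HG): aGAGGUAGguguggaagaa
miR-4500 (MIR4500HG): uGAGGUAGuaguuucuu
miR-100-5p (MIR100HG): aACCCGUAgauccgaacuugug
miR-99a-5p (MIR99AHG): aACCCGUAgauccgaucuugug
MIR100HG and MIR99AHG each also hold miR-125b-5p, which is the same RNA from both. From the hosts with the largest differences that did not pass, and from MIR31HG, one of the fixed names, the following microRNAs are shown.
miR-221-3p (MIR222HG): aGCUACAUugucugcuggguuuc
miR-222-3p (MIR222HG): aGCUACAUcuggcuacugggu
miR-210-3p (MIR210HG): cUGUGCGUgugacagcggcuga
miR-31-5p (MIR31HG): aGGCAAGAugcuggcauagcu
The pair from MIR222HG, the precursor of miR-221 and miR-222, share the seed GCUACAU.

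Before the results, the libraries need a word. Totals ran from 13170775 to 22128930 counts, of which the members took 0.311% to 0.385%, and 3 counts are worth 0.136 to 0.228 CPM. DMSO 11 stood apart: its counts differed from those of DMSO 10 and DMSO 12 by a chi-square statistic of 79.2 and 87.2 for each degree of freedom, against 8.47 between the latter and 4.86 to 6.94 among the fenbendazole libraries. Of the members, 74 were lowest of all 6 libraries in DMSO 11, against 18 to 48 in each other library. Another 41 were highest there, within the 11 to 65 of the other libraries. The 74 had a median GC content of 42.8% and the 41 of 52.7%, and the part of base composition in the results was not tested. Values without DMSO 11 are therefore set beside the results. As a check of the line, ERBB2, KRT8, KRT18, EPCAM, PAX8 and VIM had means above 58 CPM in both groups, MUC16 had 2.82 and 2.14 CPM and WT1 0.588 and 0.748 CPM. ERBB2 itself fell, from 10757 ± 4454 to 4394 ± 212 CPM with DMSO 11 highest at 15881 CPM (log2 -1.29 ± 0.26, adjusted p 0.0422), and its log2 value without DMSO 11 was -0.89 (adjusted p 1.24e-07). Of 10 markers of leukocytes, endothelium, liver and fibroblasts, COL1A1, COL1A2, LUM and PECAM1 passed the filter and none of them passed the edgeR test (1 had an unadjusted p under 0.05, and 1 passed with DESeq2, 0 with limma-voom and 1 without DMSO 11), while CD3E was at 0 counts. COL1A1 had means of 51.6 CPM in the controls and 39.9 CPM in the treated libraries. In the same order PECAM1 had 10.3 and 12.2 CPM, LUM 9.81 and 14.7 CPM and COL1A2 11.8 and 7.05 CPM, so these markers were not absent. The summed level of all 10 markers was 70.2 to 109 CPM in the controls and 74.3 to 76.1 CPM in the treated libraries.

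With fenbendazole, 8 members rose and 1 fell. The rises were those of MIR924HG, LINC01572, LINC00601, LINC01224, LINC01515, SNHG1, MIR4435-2HG and LINC02582, and LINC02593 fell. The test was edgeR's quasi-likelihood F test over all 17363 genes that passed its filter on low counts, with a Benjamini-Hochberg adjusted p under 0.05 as the threshold. All 240 members passed that filter. The 9 members called are 3.75% of them, close to the 4.03% of all tested genes (700 genes), of which 3.11% rose and 0.921% fell. Among 1604 other lncRNAs with at least 1 CPM, 24 changed (1.5%), 12 in each direction. By family, 5 LINC members rose and 1 fell, 1 SNHG member rose, and 2 microRNA hosts rose. None of the 30 members that lay under the 1 CPM line in 1 group passed the edgeR test, where 7 had an unadjusted p under 0.05, and 3 passed with DESeq2, 0 with limma-voom and 3 without DMSO 11. For comparison, 56 of the 240 members had an unadjusted edgeR p under 0.05. Of all genes with an adjusted p, DESeq2 called 10.4%, limma-voom 4.05% and the fit without DMSO 11 22.3%. In the plot of change against level, all 9 members that passed lie at a mean of 2 CPM or more. None of the 79 members under 2 CPM passed.

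**Figure D1:**
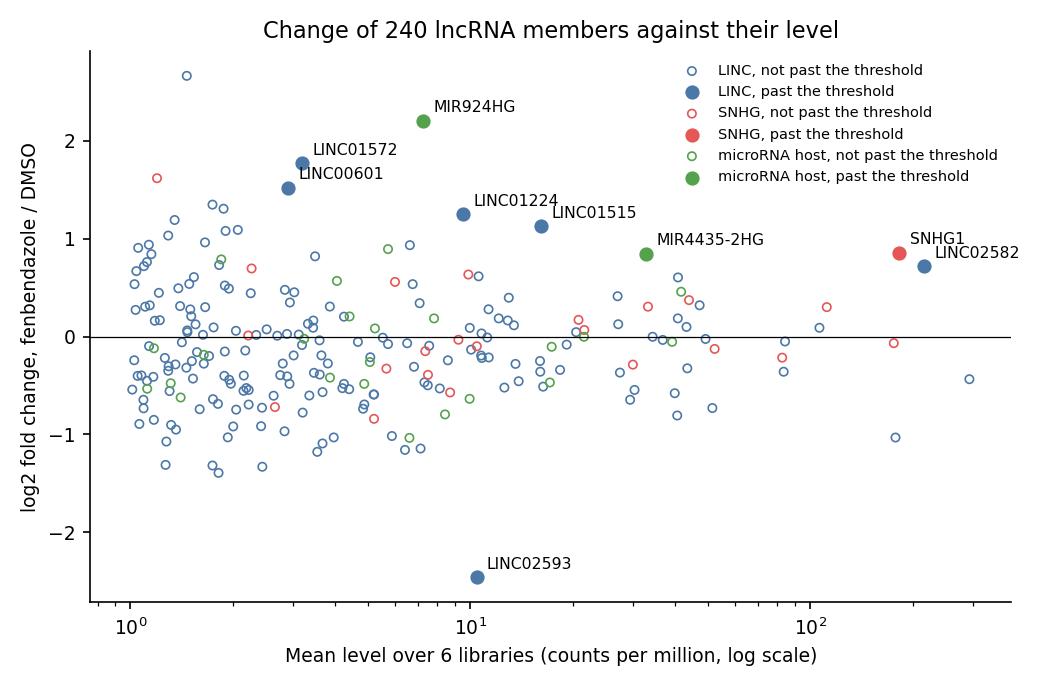
The log2 fold change (fenbendazole over DMSO) of each of the 240 members is plotted against its mean level over 6 libraries in CPM on a log axis, coloured by family, with filled points for the 9 members past an adjusted p of 0.05. The filled points lie at mean levels from 2.90 CPM (LINC00601) to 215 CPM (LINC02582), and 8 of them are above 0.

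MIR924HG, the host of miR-924, had the largest rise of those that passed. Its level was 2.73, 1.93 and 3.27 CPM in DMSO 10, 11 and 12 and 12.2, 11.3 and 12.9 CPM in fenbendazole 7, 8 and 9. All 3 treated libraries lay more than 3-fold above the highest control. The mean went from 2.64 ± 0.675 to 12.1 ± 0.826 CPM (SD, n = 3 each), a log2 fold change of 2.21 ± 0.26 (SE) or 4.62-fold, with an edgeR adjusted p of 0.0048. Without DMSO 11 the log2 fold change was 2.03. It was the one member that stayed past the threshold whichever library was left out, with adjusted p from 1.32e-05 to 0.0429. This gene spans chr18:39206917-39800322 on the minus strand (GRCh38) and is far from coding genes, the nearest of which, CELF4, lies 1641090 bp away. CELF4, an RNA-binding protein gene, had 0.817 ± 0.746 and 0.721 ± 0.315 CPM.

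LINC01572 had 1.51, 1.89 and 0.967 CPM in the controls and 5.36, 5.48 and 4.30 CPM with fenbendazole. The groups do not overlap, and DMSO 11 was the highest control. The log2 fold change was 1.77 ± 0.32 (adjusted p 0.0245, 3.41-fold), and 2.01 without DMSO 11. Its span, chr16:72236281-72665014 on the minus strand, contains an antisense gene, ENSG00000260664. That antisense gene had 0.591 ± 0.512 and 0.433 ± 0.390 CPM and did not pass the test (adjusted p 0.856). Of the 50-base windows of the longest LINC01572 transcript, 68.2% also occur in the gene that GENCODE release v29 names AC004158.1. Whether the counting used strand is not given in the sources used here, so reads of LINC01572 and of such genes cannot be told apart with certainty. The nearest coding gene, PMFBP1, 59403 bp away, had 1.87 ± 0.524 and 4.62 ± 0.360 CPM, a log2 fold change of 1.31 ± 0.30 that missed the threshold (adjusted p 0.0592) and passed it without DMSO 11 (adjusted p 0.015).

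LINC00601, on chromosome 10 (126413869-126421879, minus strand), was among the lowest of the RNAs that passed. Its CPM values were 1.67, 1.40 and 1.49 in the controls and 5.10, 2.81 and 5.18 with fenbendazole. Fenbendazole 8 lay nearer the controls than the other two treated libraries. The log2 fold change of 1.52 ± 0.33 (1.47 without DMSO 11) had an adjusted p of 0.0484, the closest to the threshold, and its call was lost with upper-quartile scaling, with limma-voom and without the filter. No other gene overlaps it, and its transcript shares no 50-base window with another gene. The nearest coding gene, C10orf90, 3118 bp away, had 1.27 ± 0.530 and 1.87 ± 0.155 CPM and did not pass (adjusted p 0.413).

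LINC01224 lies in a chromosome 19 region rich in zinc-finger genes (23399097-23416075, minus strand), 3626 bp from ZNF91. It had 5.68, 5.05 and 6.32 CPM with DMSO and 11.4, 14.3 and 14.9 CPM with fenbendazole. Every treated library was above every control, and the log2 fold change was 1.25 ± 0.21 (adjusted p 0.0193), and 1.18 without DMSO 11. ZNF91, a repressor of retroelements, had 81.1 ± 36.4 and 84.9 ± 18.1 CPM with an adjusted p of 0.925.

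For LINC01515 (chromosome 10, 65570338-65880289, plus strand) the controls had 10.2, 7.86 and 12.8 CPM and the treated libraries 25.1, 18.5 and 23.5 CPM. The groups were apart at log2 1.12 ± 0.24 (adjusted p 0.0457), and at 0.97 without DMSO 11. Its call was lost with upper-quartile scaling. CTNNA3, an alpha-catenin gene 32168 bp away, was below 1 CPM in the mean of both groups.

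LINC02582 was one of the most abundant members. It had 179, 137 and 176 CPM in DMSO 10, 11 and 12 and 267, 258 and 285 CPM in fenbendazole 7, 8 and 9. The rise, from 164 ± 23.4 to 270.2 ± 13.7 CPM, was the smallest of those that passed, 1.65-fold (log2 0.72 ± 0.14, adjusted p 0.0345), and its call was lost with upper-quartile scaling. DMSO 11 was the lowest library, and the log2 fold change without it was 0.61. In the deposited FPKM, which divide by transcript length, LINC02582 had the highest mean of all members, 143.3 over the 6 libraries. It lies at chr18:73324941-73349879 on the plus strand with no overlapping gene, and the nearest coding gene, NETO1, had no count in any library.

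SNHG1 hosts 7 snoRNA genes and shares its start region with SLC3A2, which encodes the heavy chain of amino acid transporters and begins 51 bp away on the other strand. SNHG1 had 132, 115 and 147 CPM in the controls and 239.9, 237 and 235 CPM in the treated libraries. The fenbendazole libraries differed from one another by little against the gap to the controls (131 ± 15.8 and 238 ± 2.27 CPM, SD, n = 3 each). The log2 fold change was 0.86 ± 0.13 (adjusted p 0.0127, 1.81-fold), and 0.78 without DMSO 11. SLC3A2 had 394, 798 and 401 CPM with DMSO and 448, 468 and 402 CPM with fenbendazole. For SLC3A2 the groups overlapped, with DMSO 11 the highest, and its log2 fold change was -0.27 ± 0.28 (adjusted p 0.596) with all libraries and 0.15 (adjusted p 0.142) without DMSO 11. Thus SNHG1 passed the test and its neighbour did not. The difference between them was not tested.

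MIR4435-2HG is the host of miR-4435 and is known as a near copy of CYTOR, another cytoplasmic lncRNA. It had 24.5, 20.7 and 25.9 CPM in the controls and 41.4, 39.3 and 46.9 CPM with fenbendazole. The groups were apart, with a log2 fold change of 0.85 ± 0.16 (adjusted p 0.031), which was 0.77 without DMSO 11. Of the 50-base windows of its longest transcript, 45.5% also occur in CYTOR, so reads may have been split between them and the value of each is uncertain. CYTOR went from 28.4 ± 4.87 to 50.4 ± 2.51 CPM (log2 0.83 ± 0.17, adjusted p 0.0421), with log2 0.70 without DMSO 11. The long span of MIR4435-2HG, chr2:111006015-111523376 on the minus strand, runs opposite to ACOXL and to BCL2L11, which encodes the pro-apoptotic BIM. ACOXL, listed as the nearest coding gene, had 0.0917 ± 0.114 and 0.0722 ± 0.125 CPM and was not tested. BCL2L11 had 46.6 ± 3.27 CPM in controls and 33.2 ± 1.83 CPM with fenbendazole, a log2 fold change of -0.49 ± 0.14 that missed the threshold (adjusted p 0.104) and passed it without DMSO 11 (adjusted p 0.0044).

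LINC02593 was the member that fell. It had 13.3, 27.8 and 11.01 CPM in DMSO 10, 11 and 12 and 2.38, 4.11 and 3.003 CPM with fenbendazole. DMSO 11 was by far the highest library, and each of the other controls was still above each treated library. The mean fell from 17.4 ± 9.09 to 3.17 ± 0.876 CPM, or log2 -2.46 ± 0.41 (adjusted p 0.0199), and the value without DMSO 11 was -1.94 (adjusted p 7.38e-05). It lies at chr1:916865-921016 on the minus strand, 2907 bp from SAMD11, a gene read from the other strand. SAMD11 had 20.5, 54.7 and 16.2 CPM with DMSO and 9.67, 9.74 and 7.07 CPM with fenbendazole. Its difference, -1.79 ± 0.46, missed the threshold (adjusted p 0.0819), and without DMSO 11 it was -1.05 and passed (adjusted p 0.0012). Both genes were highest in DMSO 11 and lower in every treated library than in every control.

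**Figure D2:**
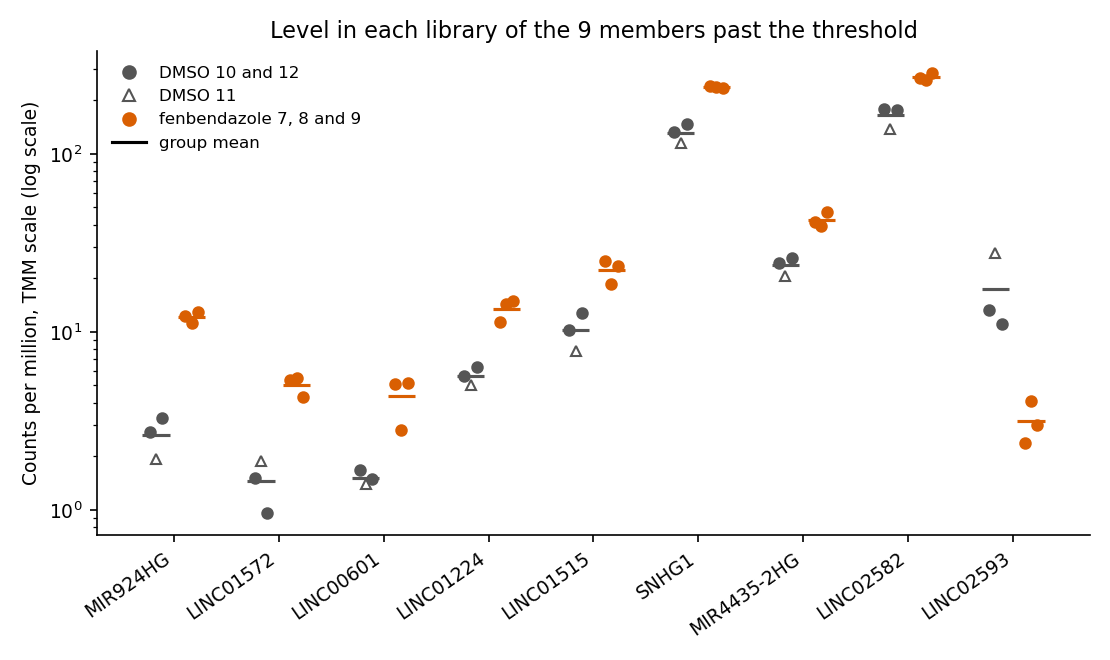
CPM (TMM scale, log axis) of the 9 members past the threshold in each of the 6 libraries, with grey for DMSO, an open triangle for DMSO 11, orange for fenbendazole and a line at each group mean. In 8 genes every orange point is above every grey one, and in LINC02593 every orange point is below, with DMSO 11 highest at 27.8 CPM.

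Leaving out DMSO 10 or any 1 of the fenbendazole libraries left MIR924HG as the one call among the members (0.417%). Of all genes, 1.57% passed without DMSO 10 and 0.807% to 0.838% without a fenbendazole library. Leaving out DMSO 12 left 5 member calls, 2.08% of members beside 2.88% of all genes. In those fits none of the 9 changed direction. Without DMSO 11 all 9 passed again, among 43 members (18 higher, 25 lower, of 240), beside 13.1% higher and 9.23% lower of 17689 genes tested in that fit. In that fit 21 LINC members fell and 13 rose, 3 SNHG members rose and 2 fell, and 2 microRNA hosts rose and 2 fell. That fit drops the control that deviated most, so its smaller spread was chosen with the data known. Adding offsets for GC content and transcript length, with all 6 libraries, called 42 members (18 higher, 24 lower), beside 21.6% of 16975 genes. Upper-quartile scaling called 5 higher and 2 lower, 2.92% of members beside 3.95% of all genes. The balance of higher and lower calls among members therefore differed between fits, with 8 to 1 in the first.

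**Figure D3:**
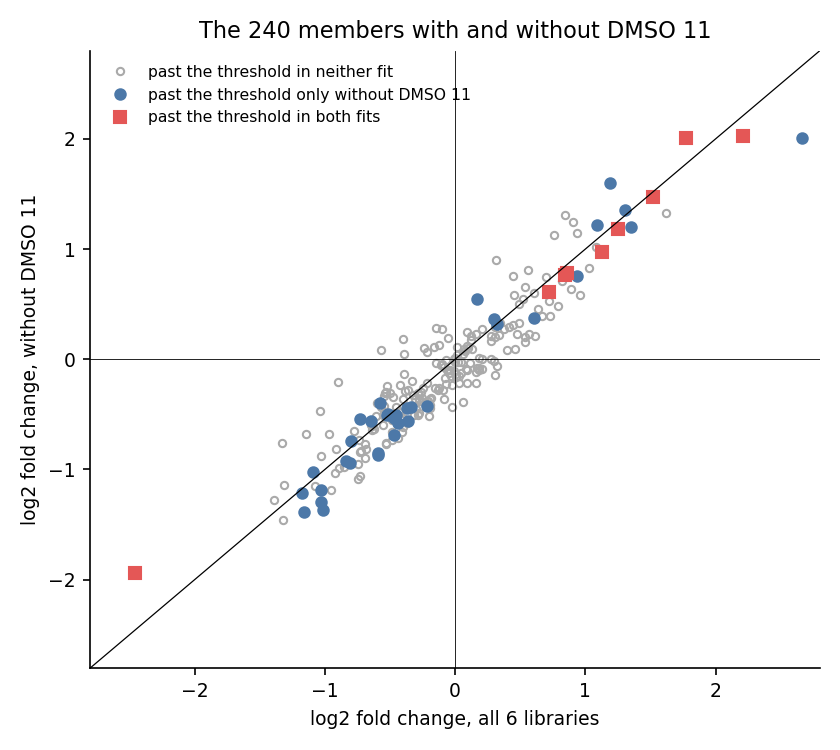
The log2 fold change of each of the 240 members without DMSO 11 (vertical axis) is plotted against the value with all 6 libraries (horizontal axis), with the line of equality. Red squares mark the 9 members past the threshold in both fits, blue points the 34 past it only without DMSO 11, and grey circles the rest.

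LINC members as a whole had a median log2 fold change of -0.19, with 76 above 0 and 116 below. The same median was -0.06 over all tested genes (7817 above 0 and 9546 below) and -0.15 over the other lncRNAs of at least 1 CPM. Counting genes whose 3 libraries of one group all lay beyond the 3 of the other, 19 LINC members were higher and 47 lower with fenbendazole. Over all 240 members these counts were 27 and 55, that is 11.2% and 22.9%, beside 17% and 15.5% of all tested genes. Among the other lncRNAs the groups were apart in 142 higher and 241 lower of 1604. Summed over the LINC members, the level was 2524, 2015 and 2724 CPM in DMSO 10, 11 and 12 and 2199.9, 2073 and 2252 CPM with fenbendazole. DMSO 11 is the lowest of all and puts the groups in overlap, while the other controls lie above every treated library. In bulk RNA, fewer cells with an RNA and less of it per cell cannot be told apart.

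The most abundant LINC member by CPM was LINC00624, which had 371, 265 and 377 CPM in the controls and 254, 244 and 251 CPM with fenbendazole. Every treated library was below every control, but the log2 fold change of -0.44 ± 0.16 did not pass (adjusted p 0.174), and it passed without DMSO 11 at -0.58. LINC00621 had 263, 138 and 314 CPM with DMSO and 115, 98.3 and 136 CPM with fenbendazole. For that RNA, DMSO 11 was close to fenbendazole 9, and the value was -1.03 ± 0.29 (adjusted p 0.105) and, without DMSO 11, -1.30 (adjusted p 0.00188). Of the windows of LINC00621, 53.5% are shared with the pseudogene NUS1P2 on the opposite strand, so its level is uncertain. With LINC00624 and LINC00621 left out, the sum over the other 190 LINC members was 1890, 1612 and 2032 CPM with DMSO and 1831, 1730.5 and 1866 CPM with fenbendazole.

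LINC00511, a lncRNA often studied in carcinoma, had 35.9, 39.9 and 31.9 CPM with DMSO and 20.5, 24.2 and 24.1 CPM with fenbendazole. The groups were apart, but the log2 fold change of -0.65 ± 0.16 missed the threshold (adjusted p 0.0774) and passed it without DMSO 11 at -0.56. LINC00665 showed overlapping groups, with 41.9 ± 2.68 and 44.8 ± 1.88 CPM (adjusted p 0.702). The largest fitted change of any member was that of LINC00973, with 1.00, 0 and 0.223 CPM in the controls and 2.32, 1.95 and 3.47 CPM with fenbendazole. DMSO 11 had no count of it, and the log2 fold change of 2.66 ± 0.94 did not pass (adjusted p 0.166) and was 2.01 without DMSO 11. LINC00973 belongs to the 14 members under 1 CPM in the mean of the controls only, so the choice of members favoured its rise. Others near the threshold, picked after their values were seen, were LINC01139 (-0.81 ± 0.18, adjusted p 0.0523), LINC01895 (1.31 ± 0.30, adjusted p 0.0599), LINC02535 (1.35 ± 0.33, adjusted p 0.0685) and LINC00205 (-0.73 ± 0.19, adjusted p 0.0801). LINC02535 also belongs to those 14 members.

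At the line that chose the members, LINC01554, LINC00115 and LINC01582 lay just inside with 1.01, 1.03 and 1.03 CPM. Just outside were LINC02057, LINC00707 and LINC02669 with 0.999, 0.995 and 0.987 CPM. These are descriptions of the choice alone. With the line at 2 CPM, 161 members remained and the 9 calls were the same in number.

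Of 23 SNHG members, 1 passed the edgeR test, and the log2 fold changes lay above 0 in 11 and below 0 in 12. Of the other 22, 5 had an unadjusted p under 0.05, DESeq2 called 1, limma-voom 0 and the fit without DMSO 11 called 4. Those 3 fits called 10.4%, 4.05% and 22.3% of all genes, and 56 of the 240 members had an unadjusted edgeR p under 0.05. The median log2 fold change of all 23 was -0.03, and it was 0.09 without DMSO 11 and 0.12 with the offsets for GC content and length, so it changed sign with the setting. By CPM the family is led by SNHG1 and SNHG29. SNHG29, also a host of snoRNAs, had 182, 193 and 166 CPM with DMSO and 153, 177 and 186 CPM with fenbendazole. The groups overlap widely, at -0.07 ± 0.13 (adjusted p 0.791). SNHG16 had 98.1, 108 and 95.3 CPM with DMSO and 128, 124 and 119.7 CPM with fenbendazole, all treated libraries being higher. Its log2 fold change of 0.30 ± 0.12 missed the threshold (adjusted p 0.201), and 0.37 without DMSO 11 passed (adjusted p 0.00234).

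The largest fitted change in the family was that of SNHG21, an RNA of low level, with 0.780, 0.351 and 0.669 CPM with DMSO and 1.85, 1.804 and 1.83 CPM with fenbendazole. The groups are apart, but the log2 fold change of 1.62 ± 0.41 did not pass (adjusted p 0.0757), nor did it without DMSO 11 (1.33). SNHG21 belongs to the 14 members under 1 CPM in the mean of the controls only, so the choice of members favoured its rise. SNHG19 had 6.69, 5.84 and 7.44 CPM with DMSO and 4.37, 4.55 and 2.24 CPM with fenbendazole. Its difference, -0.84 ± 0.31 (adjusted p 0.187), passed without DMSO 11 at -0.92. SNHG12 (10.4 CPM on average) and SNHG15 (7.37 CPM) had overlapping groups, with adjusted p of 0.816 and 0.829. Described here with the family as a whole, SNHG4, SNHG5 and SNHG26 were higher in every treated library and SNHG8 and SNHG28 lower, with adjusted p from 0.202 to 0.348. SNHG7, SNHG15, SNHG17 and SNHG32 were highest in DMSO 11, and without that library their log2 values were 0.08, 0.28, 0.55 and 0.13, against -0.57, -0.15, 0.17 and -0.13 with it.

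**Figure D4:**
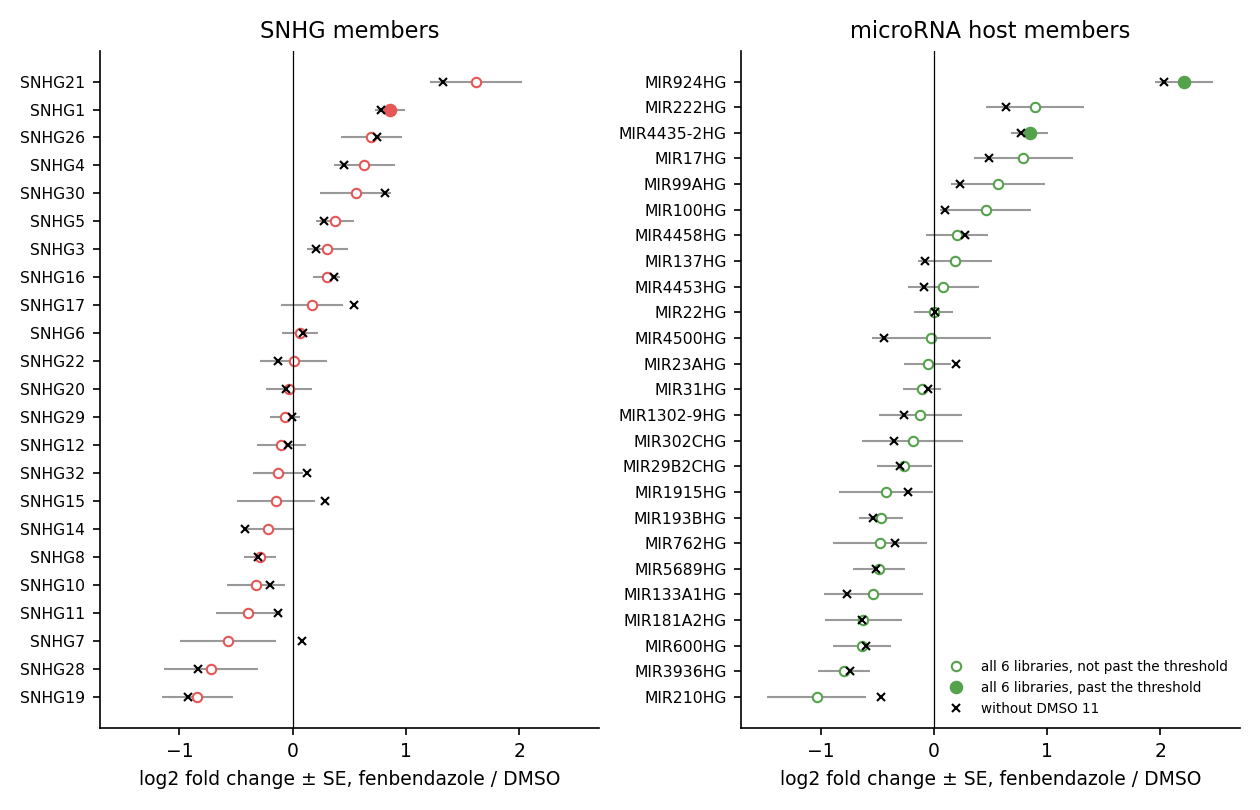
Log2 fold change (fenbendazole over DMSO) with its SE for the 23 SNHG members (left) and the 25 microRNA hosts (right), filled where the adjusted p is under 0.05, with a cross for the value without DMSO 11. SNHG1, MIR4435-2HG and MIR924HG are filled, and the other members lie on both sides of 0.

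Summed over the SNHG members, the level was 766, 781 and 788 CPM with DMSO and 897, 893 and 896 CPM with fenbendazole, higher in every treated library. Most of that gap was SNHG1. The other 22 summed to 634, 666 and 641 CPM with DMSO and to 657, 655 and 661 CPM with fenbendazole, where the groups overlap. By length-scaled FPKM, SNHG29 (139.3), SNHG1 (101.5) and SNHG32 (48.8) were the highest of the family in the mean of 6 libraries.

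Of the 25 microRNA hosts, 9 were above 0 and 16 below, with a median of -0.10, and besides MIR924HG and MIR4435-2HG none passed the edgeR test, where 4 more had an unadjusted p under 0.05. DESeq2 called 1 of those other 23, limma-voom 0 and the fit without DMSO 11 called 2, beside 10.4%, 4.05% and 22.3% of all genes. The most abundant, MIR100HG, carries miR-100, let-7a-2 and miR-125b-1. It had 40.8, 14.8 and 50.7 CPM with DMSO and 54.3, 41.9 and 49.4 CPM with fenbendazole. DMSO 11 was far below the other 5 libraries, and the log2 fold change was 0.46 ± 0.40 (adjusted p 0.536) with it and 0.10 (adjusted p 0.658) without it. MIR99AHG, whose let-7c-5p, miR-99a-5p and miR-125b-5p have the seeds of let-7a-5p, miR-100-5p and miR-125b-5p in MIR100HG, had 3.29, 1.58 and 5.06 CPM with DMSO and 5.69, 4.26 and 4.59 CPM with fenbendazole, also lowest in DMSO 11. For MIR99AHG the log2 fold change was 0.57 ± 0.42 (adjusted p 0.458), and 0.23 without DMSO 11. MIR4458HG and MIR4500HG, which share the let-7 seed, had adjusted p of 0.692 and 0.983. No host with a let-7 seed therefore passed the test.

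MIR210HG, whose microRNA is induced by hypoxia in many cells, had the largest fall by value, with 5.13, 14.4 and 6.92 CPM with DMSO and 5.76, 4.26 and 2.94 CPM with fenbendazole. DMSO 11 was the highest, the groups overlap, and the log2 fold change of -1.03 ± 0.44 (adjusted p 0.228) was -0.47 without DMSO 11. MIR222HG had 3.34, 2.41 and 6.47 CPM with DMSO and 8.47, 4.55 and 9.42 CPM with fenbendazole. Its groups overlap as well (0.89 ± 0.43, adjusted p 0.28). MIR23AHG (39.2 CPM on average), MIR22HG (21.6 CPM), MIR31HG (17.3 CPM) and MIR17HG (1.85 CPM) had overlapping groups and adjusted p of 0.9, 0.995, 0.744 and 0.334. MIR23AHG had a log2 fold change of -0.05, which was 0.35 and past the threshold with the offsets for GC content and length. Among the remaining hosts, described with the family as a whole, MIR193BHG, MIR600HG, MIR3936HG, MIR5689HG and MIR181A2HG were lower in every treated library, with adjusted p from 0.105 to 0.326, and MIR193BHG and MIR3936HG passed without DMSO 11. Summed over the hosts, the level was 242, 228 and 264 CPM with DMSO and 278, 252 and 271 CPM with fenbendazole.

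**Figure D5:**
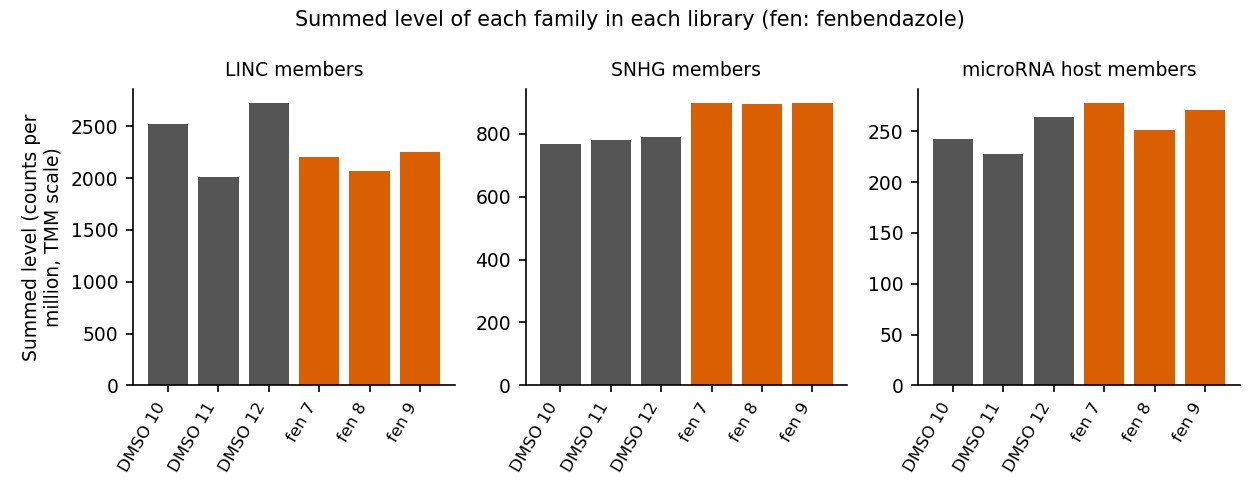
Summed level (CPM, TMM scale) of the 192 LINC, 23 SNHG and 25 microRNA host members in each library, with grey bars for DMSO and orange bars for fenbendazole. The SNHG bars are higher in all 3 fenbendazole libraries, and the LINC bar of DMSO 11 (2015 CPM) is below those of DMSO 10 and DMSO 12.

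The genes that work with these RNAs were counted from lists, which were chosen with earlier results of these data known. Their counts are therefore a description. Of all genes, 4.03% passed with edgeR, 10.4% with DESeq2, 4.05% with limma-voom, 22.3% without DMSO 11 and 21.6% with the offsets for GC content and length. Of 10 proteins of the snoRNA particles, 3 rose and none fell: NOP58, a core protein of box C/D particles, with log2 1.04 ± 0.21 (adjusted p 0.0382), DKC1, the pseudouridine synthase of H/ACA particles, with 0.77 ± 0.12 (adjusted p 0.013), and NOLC1, a nucleolar chaperone of both, with 0.86 ± 0.13 (adjusted p 0.0122). Their median was 0.44, and without DMSO 11 7 of the 10 rose and none fell. Of 10 snoRNA hosts with other names, such as GAS5 and ZFAS1, none passed the edgeR test, 1 had an unadjusted p under 0.05, 1 passed with DESeq2 and 0 with limma-voom, and the median was 0.05. Without DMSO 11, 1 of these hosts rose. None of 13 genes of microRNA processing and silencing (DROSHA, DICER1, the AGO genes and others) passed with edgeR, 4 had an unadjusted p under 0.05, 2 passed with DESeq2 and 0 with limma-voom, and the median was 0.13. Without DMSO 11, 5 of these 13 passed, 3 higher and 2 lower, and the median was 0.01. For 10 nonsense-mediated decay genes the count was also 0 with edgeR, with 2 at an unadjusted p under 0.05, 1 past the threshold with DESeq2, 0 with limma-voom, and a median of 0.11. Without DMSO 11, 4 of these 10 rose and none fell, and with the offsets for GC content and length 6 rose and none fell. Of 16 tested known lncRNAs of other names, CASC19 (1.803 ± 0.17, adjusted p 0.00178), UCA1 (1.28 ± 0.19, adjusted p 0.0122) and CYTOR rose and none fell. Without DMSO 11, 3 rose and 2 fell, which, named after their values were seen, were JPX (-0.55, adjusted p 0.00144) and NORAD (-0.39, adjusted p 0.000296). With the offsets 4 rose and 2 fell.

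Where members lie bears on how surely they were counted. By the deposited spans, 133 of 240 overlap a gene on the opposite strand, which is protein-coding in 39, and 69 overlap no gene at all. Of these 69, 5 passed the test, 4 higher and 1 lower (LINC00601, LINC01224, LINC01515, LINC02582 and LINC02593), which is 7.25% beside 4.03% of all tested genes. Of the 156 members that overlap a gene other than a small RNA, 1.92% passed. The difference between these shares was not tested. By sequence, 95 members share no 50-base window with another gene of GENCODE release v29, and 19 share over 50% of theirs. All 23 SNHG members hold snoRNA genes, 133 in all, and all 25 hosts hold microRNA genes of the table. A protein-coding gene begins within 1000 bp on the opposite strand in 16 members.

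The nearest coding gene was tested for 188 members and passed in 13, higher in 12 and lower in 1, and none of these 13 members did. The 13 hold 10 distinct genes, 5.81% of the 172 distinct neighbours tested, beside 4.9% of all tested protein-coding genes of at least 1 CPM. These pairs were picked after their values were seen. LINC02535 lies 59398 bp from NT5E, which encodes the ectonucleotidase CD73 and rose from 54.03 ± 8.77 to 106 ± 2.13 CPM. LINC02086 lies 13351 bp from HOXB7, a homeobox gene and the one that fell (78.8 ± 5.01 to 46.9 ± 1.08 CPM). Its own difference of -1.09 ± 0.32 did not pass (adjusted p 0.107), although every treated library was lower. DUSP10, a phosphatase of stress kinases, is the nearest coding gene of 4 members, which share that neighbour and are not separate cases, and it rose from 33.8 ± 2.76 to 56.0 ± 1.10 CPM. Of those 4, LINC02474 was higher and LINC02257 lower in every treated library, while LINC01655 and LINC01705 overlapped. LINC01693, 4030 bp from the mitotic kinase gene NEK2, had a log2 fold change of 0.09 beside 1.91 ± 0.32 for NEK2.

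Promoters from RefSeq (GRCh38.p14, 250 bases before to 50 after the start) were found for 170 members and for 8 of the 9 that passed. The motifs searched on both strands were the cell cycle element CHR (TTTGAA), an E2F site (TTCCCGCC), the CCAAT box, an AP-1 site (TGACTCA) and a TEAD site (GGAATG). Shown are the promoters whose start lies within 100 bp of the deposited gene start, and that of LINC02593, whose RefSeq start is 1324 bp inside the deposited one. Matches are in capitals.
LINC00601 promoter, chr10:126421830-126422129, minus strand: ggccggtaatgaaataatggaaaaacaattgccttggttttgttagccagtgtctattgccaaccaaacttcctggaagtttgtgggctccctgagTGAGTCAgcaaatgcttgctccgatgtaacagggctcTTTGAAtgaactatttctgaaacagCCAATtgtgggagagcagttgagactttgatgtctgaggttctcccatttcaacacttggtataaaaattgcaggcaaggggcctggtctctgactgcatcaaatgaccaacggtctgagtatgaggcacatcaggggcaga
LINC01572 promoter, chr16:72664921-72665220, minus strand: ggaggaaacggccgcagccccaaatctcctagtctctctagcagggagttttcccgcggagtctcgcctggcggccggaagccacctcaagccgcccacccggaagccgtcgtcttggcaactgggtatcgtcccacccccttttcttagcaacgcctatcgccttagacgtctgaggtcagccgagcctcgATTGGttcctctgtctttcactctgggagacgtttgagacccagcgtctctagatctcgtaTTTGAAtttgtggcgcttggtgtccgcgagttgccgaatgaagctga
LINC01224 promoter, chr19:23416025-23416324, minus strand: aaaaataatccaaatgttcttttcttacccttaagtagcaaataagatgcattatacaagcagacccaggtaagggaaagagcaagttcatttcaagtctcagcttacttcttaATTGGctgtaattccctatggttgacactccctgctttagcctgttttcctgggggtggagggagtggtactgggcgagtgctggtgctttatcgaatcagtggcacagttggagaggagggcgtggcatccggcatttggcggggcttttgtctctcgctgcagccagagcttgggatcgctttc
SNHG1 promoter, chr11:62855836-62856135, minus strand: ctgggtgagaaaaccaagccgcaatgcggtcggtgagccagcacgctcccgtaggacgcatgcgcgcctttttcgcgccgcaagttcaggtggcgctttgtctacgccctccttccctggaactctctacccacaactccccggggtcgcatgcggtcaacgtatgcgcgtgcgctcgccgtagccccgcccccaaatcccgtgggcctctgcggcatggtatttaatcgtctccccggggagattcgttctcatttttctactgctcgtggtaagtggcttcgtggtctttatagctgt
LINC02593 promoter, chr1:919643-919942, minus strand: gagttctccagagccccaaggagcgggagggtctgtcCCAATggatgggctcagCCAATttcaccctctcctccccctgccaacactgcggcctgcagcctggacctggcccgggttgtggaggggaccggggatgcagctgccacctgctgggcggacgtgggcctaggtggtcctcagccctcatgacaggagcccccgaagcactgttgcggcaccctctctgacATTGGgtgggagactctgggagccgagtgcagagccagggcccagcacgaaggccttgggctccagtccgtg
The letters of the CHR element occur in 4 of the 8 promoters, including those of LINC00601 and LINC01572, beside 15.2% of 35116 promoters and 15.7% of 198 promoters of members. CCAAT occurs in 4 of the 8, beside 34.6% and 43.4%. The AP-1 letters occur in 2 of the 8, LINC00601 and MIR4435-2HG, beside 4.95% of all promoters and 11.1% of the members'. No match of the E2F or TEAD letters fell in these 8 windows, and none of the 5 motifs occurs in the window of SNHG1. LINC02593, the RNA that fell, holds the CCAAT letters at 3 places. Such matches describe letters in a window, not binding.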

How the data were processed

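The authors deposited 1 table for the 6 poly(A) libraries with whole-number read counts per gene, which they had not normalised, and with FPKM values per the file headers. Per the submitters' processing notes, the tools were HISAT2 2.1.0, StringTie 1.3.4b, CASAVA 1.8 and edgeR, on GRCh38. Which program and annotation were used for counting, and whether strand was kept, is not given in the sources used here. The members and the gene lists were chosen with earlier results of these data known.

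All 61552 genes entered edgeR 4.0.16 (R 4.3.3) with TMM scaling, its filter on low counts and robust quasi-likelihood F tests, and p-values were adjusted over the 17363 genes left. Each SE is the log2 fold change over the root of F, and levels are TMM-scaled CPM. The fit was tested on simulated counts. Alternatives were scaling by median of ratios or upper quartile, dropping the filter, requiring 1 CPM throughout 1 group, DESeq2 1.42.0, limma-voom (limma 3.58.1), an adjusted p of 0.01, each library left out and other member lines. Added after seeing the data were GC and length offsets (splines of 5 degrees of freedom on the longest transcript of GENCODE release v29, known for 97.8% of tested genes and 100% of members) and library quality weights. Text names were taken by rule: members past the threshold, the 3 highest and the 3 largest changes per family, 3 on each side of the 1 CPM line, a list of fixed names, list genes past the threshold and the coding neighbours of members past it. Other names are said to be picked later, come with their family or list, or lie opposite or share sequence with a named gene. Overlaps and distances use the deposited coordinates. Plots were made in Python 3.11.15 with matplotlib 3.10.9.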

Additional observations from a re-analysis of the deposited data

How the results depend on the processing

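No paired analysis was possible because the controls are numbered 10 to 12 and the treated libraries 7 to 9, with no number in common. Median-of-ratios scaling gave 9 member calls, 3.75% of members beside 4.04% of all genes. Upper-quartile scaling gave 5 higher and 2 lower, 2.92% beside 3.95%. With no filter 7 were higher and 2 lower, 3.75% of members beside 1.72% of 39099 genes. With the 1 CPM filter 11 were higher and 2 lower, 5.99% of 217 members beside 5.7% of 15046 genes. DESeq2 gave 22 members (13 higher, 9 lower) and 1697 genes in all (998 and 699), which are 9.17% of members and 10.4% of genes. GC and length offsets gave 42 members (18 and 24) and 3661 genes (2423 and 1238), and limma-voom with quality weights gave 62 members (25 and 37) and 4587 genes (2434 and 2153). The shares of members and of all genes were 17.5% and 21.6% with the offsets and 25.8% and 26.4% with the weights. At an adjusted p of 0.01, 1 member (1 higher, 0 lower) and 210 genes (193 and 17) remained. Among the 69 members that overlap no gene there were 5 calls, 4 of them higher, because fewer members were counted. Leaving out 1 library at a time gave 1 to 43 members (1 to 18 higher, 0 to 25 lower) and 147 to 3946 genes (139 to 2313 higher, 8 to 1633 lower), highest without DMSO 11, which had a quality weight of 0.074. Members higher with groups apart numbered 32 to 45 with 1 library left out, and 61 to 80 were lower. Leaving a library out can only add to the 27 and 55 seen with all 6 libraries. The same shares over all tested genes were not computed with a library left out. MIR23AHG turned from -0.05 to 0.35 with the offsets. For each of these changes the cause was not tested. The median over members kept its sign in every setting run (-0.20 to -0.06), and none of the 9 calls changed direction in any of them. At 1 to 2 CPM a library holds few reads of a gene, which limits what can be seen for the 79 members under 2 CPM.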
